A study of Saccharomyces cerevisiae with 12 samples.

Results

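Genes of Saccharomyces cerevisiae (budding yeast) that serve the use of proline, GABA (gamma-aminobutyric acid) and other poor nitrogen sources were followed by RNA sequencing in cells with and without the tSH2 domain of Spt6. They are PUT1 (YLR142W), PUT2 (YHR037W), PUT4 (YOR348C), GAD1 (YMR250W), UGA1 (YGR019W), UGA2 (YBR006W), UGA4 (YDL210W), GAP1 (YKR039W), DAL80 (YKR034W) and MEP2 (YNL142W), 10 of the 6571 genes measured. The set was chosen by gene identity, but it was selected on the higher PUT4 and GAD1 values of the tSH2Δ libraries in this same comparison, so the values of all members are a description and carry no test.

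Yeast prefers ammonium and glutamine as nitrogen sources and keeps the genes for poorer sources low while these are present, which is called nitrogen catabolite repression. The GATA factors Gln3 and Gat1 switch such genes on, and the GATA-type repressors Dal80 and Gzf3 oppose them. Proline is taken up by the permease Put4 and turned into glutamate in the mitochondrion by Put1 and Put2, whose genes are switched on by Put3 when proline is present. In the GABA shunt, Gad1 makes GABA from glutamate, and Uga1 and Uga2 turn it into succinate.

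The tSH2Δ group (spt6-tSH2Δ, labelled genotype tSH2delta) and the WT group had 3 libraries each, and the labels name the strain S288C for both. All cultures were untreated and grown in YPD, a rich glucose medium, for 4 h after dilution of overnight cultures to an OD600 of 0.2, while the growth label gives a fixed density as the end point. The sources used here give neither the density of each culture at harvest nor whether the 3 libraries of a group came from separate cultures, so the spread between libraries may be technical. Spt6 binds histones and elongating RNA polymerase II, and its tSH2 domain makes the contact with the polymerase.

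The tSH2Δ libraries held 24935544 to 27069700 reads and the WT libraries 20483931 to 23626250. The deposited unit is RPKM (reads per kilobase of gene, scaled to the library's reads). Here RPKM was divided by a library size factor that sets the median gene equal, called rescaled RPKM. Log2 fold changes are tSH2Δ over WT on the log2(rescaled RPKM + 1) scale, which understates the change of low genes. The median of all 6307 genes tested was 0.57 with RPKM as deposited and 0.01 after rescaling. A gene was called at an adjusted p under 0.05 in limma, a linear model fitted across all tested genes. SPT6 itself had 84.7 ± 0.816 rescaled RPKM in tSH2Δ and 180.4 ± 5.76 in WT (SD, n = 3 each), or -1.08 on the log2 scale (SE 0.0354, limma adjusted p = 3.51e-08). These values do not show whether the domain's sequence is missing from the transcript. Of 5 genes specific to the a mating type, all were expressed in both groups and called lower in tSH2Δ (2 lower and 1 higher with RPKM as deposited, 3 lower and 1 higher after quantile normalization), with the receptor gene STE2 at 416.0 rescaled RPKM in tSH2Δ and 539.7 in WT. Of 4 genes specific to the alpha type, 2 were called higher, SAG1 (59.7 in tSH2Δ and 17.3 in WT) and MF(ALPHA)2 (24.9 in tSH2Δ and 9.17 in WT), STE3 was lower (0.829 in tSH2Δ and 3.87 in WT) and MF(ALPHA)1 was not tested (0.618 in tSH2Δ and 0.413 in WT). The tryptophan synthesis gene TRP1 was close to 0 in both, at 0.467 in tSH2Δ and 0.417 in WT. LEU2, of leucine synthesis, had 15.0 in tSH2Δ and 49.3 in WT.

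Of the 10 members 9 passed the filter for the test (at least 1 RPKM in at least 3 libraries). Of these, 6 were called higher in tSH2Δ, 1 lower (UGA4) and 2 not called (PUT2 and GAP1), and DAL80 was too low to be tested. Across all tested genes 83.5% were called, 41.6% higher and 41.9% lower. By library values, 6 members had all tSH2Δ libraries above all WT libraries, 2 had them below and 2 overlapped, where 42.5% of all tested genes lay above and 42.2% below. Nothing is read from these counts, since the members were picked with the comparison in view. PUT4 passed the filter only through its tSH2Δ libraries, and so had to differ. The tested members' median log2 fold change was 0.69. In bulk RNA, a larger share of cells that express a gene and more RNA per expressing cell cannot be told apart.

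**Figure D1:**
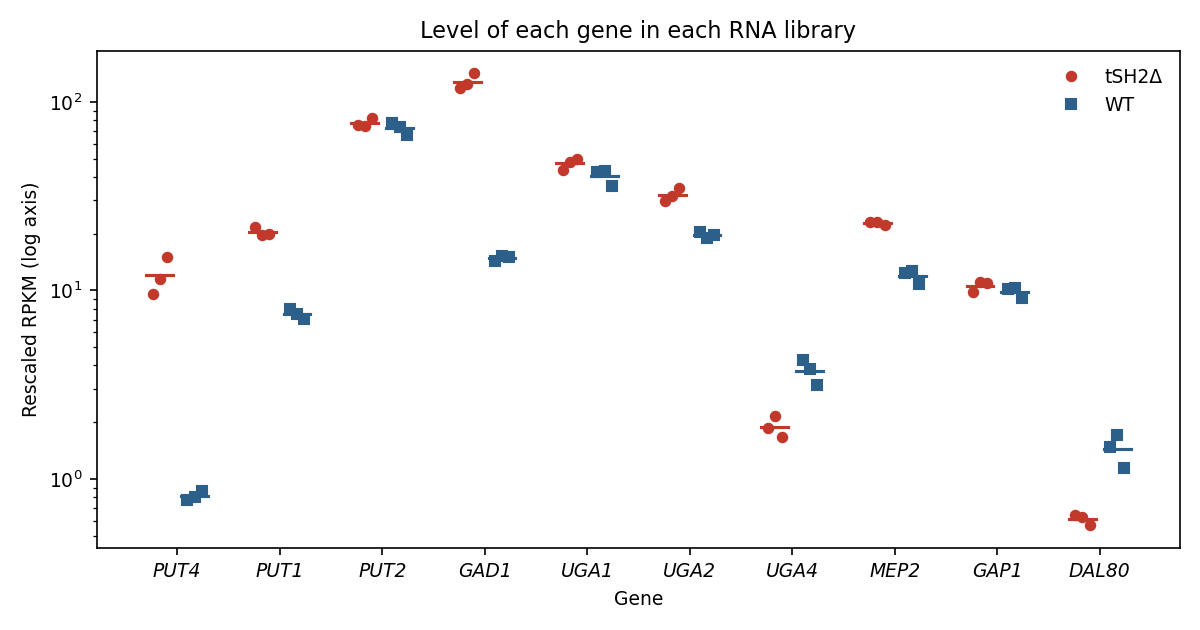
Level of each of the 10 genes in rescaled RPKM on a log axis, tSH2Δ left of WT, with 1 point per library and a bar at the mean of 3. GAD1 and PUT4 show the widest gaps between groups, PUT2 and GAP1 overlap, and UGA4 and DAL80 are lower in tSH2Δ.

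PUT4 (chromosome XV, 986899 to 988782), the high-affinity proline permease gene, was the member with the largest ratio of means. It had 9.60, 11.6 and 15.0 rescaled RPKM in the tSH2Δ libraries, against 0.775, 0.799 and 0.864 in the WT libraries. All tSH2Δ values were more than 10 times every WT value, and tSH2Δ replicate 3 was the highest. The means were 12.04 ± 2.72 in tSH2Δ and 0.813 ± 0.0463 in WT (SD, n = 3 each), a ratio of 14.8 and a log2 fold change of 2.83 (SE 0.15). The reads behind these levels were 556 to 919 per tSH2Δ library and 25 to 28 per WT library, so the WT level rests on few reads. With such a low WT level the fold depends on the constant added before the logarithm. With 0.1 RPKM added it was 3.71, with 5 RPKM added 1.54, and with limma's voom on the whole reads 3.85. PUT4 ranked 12th of 6307 genes by log2 fold change. In level it overlapped GAP1 in tSH2Δ, above UGA4 and DAL80, and was the lowest of the members in WT.

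The genes of the enzymes that oxidise proline differed from each other. PUT1 (chromosome XII, 425186 to 426616), which encodes proline oxidase, had 21.69, 19.71 and 20.02 rescaled RPKM in tSH2Δ, against 7.94, 7.49 and 7.03 in WT. The groups did not overlap, and the log2 fold change was 1.34 (SE 0.0663). PUT2 (chromosome VIII, 181977 to 183704), which encodes the dehydrogenase of the following step, had 75.41, 74.95 and 82.03 in tSH2Δ, against 77.2, 73.6 and 66.8 in WT. These groups overlapped, and the log2 fold change of 0.10 (SE 0.0603) was not called. Within a library, the ratio of PUT1 to PUT2 does not depend on the scaling between libraries. It was 0.265 ± 0.0219 in tSH2Δ and 0.103 ± 0.00185 in WT (SD, n = 3 each), while that of PUT4 to PUT1 was 0.592 ± 0.153 in tSH2Δ and 0.109 ± 0.0129 in WT. The fold changes of PUT4, PUT1 and PUT2 thus differed, and their levels lay closer together in tSH2Δ than in WT.

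GAD1 (chromosome XIII, 770801 to 772558), which encodes glutamate decarboxylase, had 118.1, 123.9 and 141.7 rescaled RPKM in tSH2Δ, against 14.4, 15.2 and 15.0 in WT. The groups were far apart, with tSH2Δ replicate 3 again the highest. The means were 127.9 ± 12.3 in tSH2Δ and 14.8 ± 0.429 in WT (SD, n = 3 each), a ratio of 8.62 and a log2 fold change of 3.02 (SE 0.0663), the 7th highest of 6307. Between 6384 and 8117 reads per tSH2Δ library and 443 to 484 per WT library lay behind it. GAD1 was the most abundant of the 10 transcripts per length in tSH2Δ and the fourth in WT. It stood above 83.5% of all genes in tSH2Δ and above 17.2% in WT.

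The genes of the later steps of the shunt differed far less. UGA2 (chromosome II, 247010 to 248503), which encodes succinate semialdehyde dehydrogenase, had 29.9, 31.7 and 35.1 rescaled RPKM in tSH2Δ, against 20.4, 18.9 and 19.6 in WT. The groups did not overlap, with a log2 fold change of 0.69 (SE 0.0639). UGA1 (chromosome VII, 525229 to 526644), which encodes GABA transaminase, had 43.7, 48.1 and 50.0 in tSH2Δ, against 42.3, 43.0 and 36.0 in WT. The lowest tSH2Δ library lay just above the highest WT library, and the log2 fold change was 0.22 (SE 0.0768). The call of UGA1 was lost without tSH2Δ replicate 2 (0.21), without tSH2Δ replicate 3 (0.18), without WT replicate 3 (0.14), after quantile normalization (0.05) and with scaling that left out chromosome XI (0.19). With no filter on low values its estimate did not move, but its call was also lost. Within libraries the ratio of GAD1 to UGA1 was 2.71 ± 0.130 in tSH2Δ and 0.370 ± 0.0411 in WT, and that of GAD1 to UGA2 was 3.96 ± 0.0637 in tSH2Δ and 0.757 ± 0.0483 in WT (SD, n = 3 each). The transcript of the enzyme that makes GABA was therefore above both others of the shunt in tSH2Δ and below both in WT. The summed level of the 3 shunt genes was 207.4 ± 17.9 rescaled RPKM in tSH2Δ and 74.9 ± 3.74 in WT.

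UGA4 (chromosome IV, 84270 to 85985), the GABA permease gene, was lower in tSH2Δ. It had 1.86, 2.16 and 1.66 rescaled RPKM in tSH2Δ, against 4.28, 3.82 and 3.15 in WT. All tSH2Δ libraries lay below all WT libraries, with a log2 fold change of -0.71 (SE 0.134). It rested on 93 to 116 reads per tSH2Δ library and 93 to 141 per WT library. Without rescaling the RPKM the log2 fold change was -0.29 and the call was lost.

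Of the other permease genes, MEP2 (chromosome XIV, 357453 to 358952), for the high-affinity ammonium permease that also signals in filamentous growth, had 23.1, 23.2 and 22.3 rescaled RPKM in tSH2Δ, against 12.4, 12.7 and 10.8 in WT. The groups did not overlap, and the log2 fold change was 0.88 (SE 0.0673). GAP1 (chromosome XI, 515063 to 516871), for the general amino acid permease, had 9.84, 11.1 and 10.9 in tSH2Δ, against 10.2, 10.3 and 9.16 in WT. These groups overlapped, with a log2 fold change of 0.10 (SE 0.0736). GAP1 is a classic target of nitrogen catabolite repression, as are PUT4 and MEP2, and the 3 differed from each other here. Summed over PUT4, UGA4, GAP1 and MEP2, the level was 47.4 ± 2.73 rescaled RPKM in tSH2Δ and 26.4 ± 2.10 in WT (SD, n = 3 each). The ratio of PUT4 to GAP1 was 1.13 ± 0.214 in tSH2Δ and 0.0828 ± 0.01002 in WT.

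DAL80 (chromosome XI, 506898 to 507707), the GATA repressor gene, was the lowest member in tSH2Δ. It had 0.643, 0.631 and 0.569 rescaled RPKM in tSH2Δ, against 1.48, 1.71 and 1.15 in WT. The tSH2Δ libraries were all lower, but the counts were 15 to 16 reads per tSH2Δ library and 16 to 23 per WT library, 47 and 62 in sum. With no filter on low values its log2 fold change was -0.59. YKR033C, an open reading frame of 425 bases without coordinates in the gene table used, falls by its name between DAL80 and its neighbour YKR032W. These are 66 bases apart, so it must overlap at least 1 of them if that order holds, and it had 5 to 11 reads per library.

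**Figure D2:**
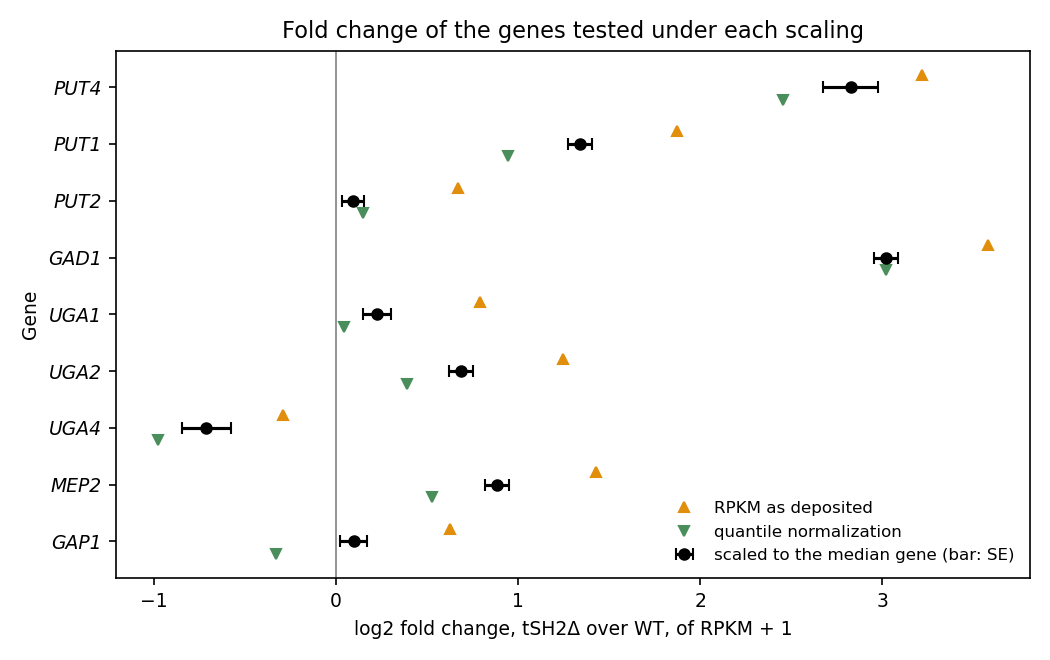
Log2 fold change, tSH2Δ over WT on the log2(RPKM + 1) scale, of the 9 tested genes with scaling to the median gene (circles, with the SE as error bars), RPKM as deposited (upward triangles) and quantile normalization (downward triangles). GAD1, PUT4, PUT1, MEP2 and UGA2 are above 0 and UGA4 is below 0 under each, while GAP1 changes side.

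The scaling between libraries set the calls of the members with small differences. With RPKM as deposited 8 members were called higher and none of the 9 lower (72.4% and 17.3% of all tested genes), with PUT2 at 0.67 and GAP1 at 0.63 now called, and the members' median at 1.25. After quantile normalization GAP1 was called lower at -0.33, where 40.0% of all tested genes were called higher and 41.1% lower. GAD1 lay between 2.74 and 3.58 over all settings tried, PUT1 between 0.95 and 1.87, MEP2 between 0.53 and 1.43 and UGA2 between 0.39 and 1.25, each higher in tSH2Δ throughout. UGA4 was lower in tSH2Δ, between -0.99 and -0.29, in the settings that kept it, which leave out the filter of at least 5 RPKM.

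The authors' deposited table lists 2890 genes with a log2 ratio of at least 0.5 in size and a DESeq2 adjusted p of at most 0.0495. In it, 6 of the 10 members appeared, all higher in tSH2Δ (36.6% of the 6571 genes were listed as higher). The authors' deposited table gave log2 ratios of 3.58 for GAD1, 3.24 for PUT4, 1.87 for PUT1, 1.43 for MEP2, 1.25 for UGA2 and 0.79 for UGA1. Per the file headers, the authors' deposited table takes the ratio of the mean RPKM values plus 1, and its ratios lie close to the fold changes obtained here from RPKM as deposited. PUT2, UGA4, GAP1 and DAL80 were not in the authors' deposited table. Of these, PUT2 (0.67) and GAP1 (0.63) were above 0.5 here with RPKM as deposited. The authors' adjusted p for genes not listed is not given.

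The order of the levels also differed between the groups. In tSH2Δ it ran GAD1, PUT2, UGA1, UGA2, MEP2, PUT1, PUT4, GAP1, UGA4 and DAL80 from high to low, and only PUT4 and GAP1 among neighbours in this order had overlapping libraries. In WT it ran PUT2, UGA1, UGA2, GAD1, MEP2, GAP1, PUT1, UGA4, DAL80 and PUT4, and no neighbours overlapped. PUT2 and UGA1 thus came next after GAD1 in tSH2Δ and led in WT.

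Within the tSH2Δ group, replicate 3 had the highest value for PUT4, GAD1, PUT2, UGA1 and UGA2, 5 of the 10 members. It was highest for 44.2% of all tested genes. The spread was widest for PUT4, whose SD was 22.6% of its tSH2Δ mean, against 9.62% for GAD1 and 2.31% for MEP2. Without each library in turn, the log2 fold change of PUT4 lay between 2.64 and 2.94 and that of GAD1 between 2.94 and 3.07.

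**Figure D3:**
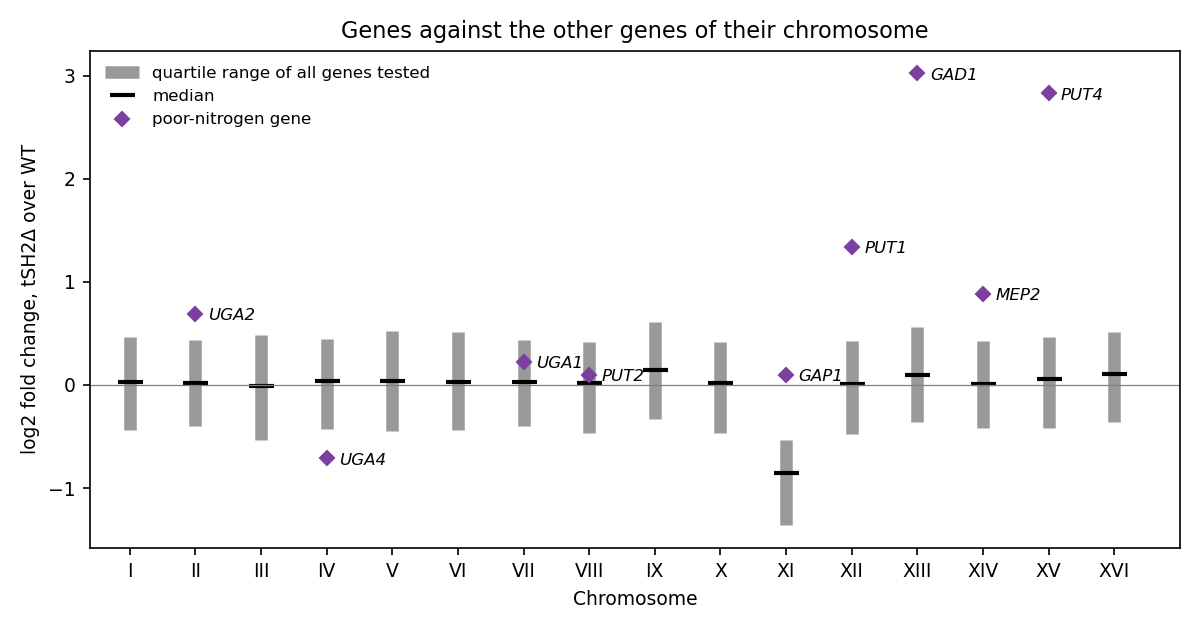
Log2 fold changes, tSH2Δ over WT on the log2(rescaled RPKM + 1) scale, by chromosome, with a bar for the quartile range of all tested genes, a tick for their median and a diamond for each tested poor-nitrogen gene. Chromosome XI has a median of -0.86, while the other 15 have medians from -0.01 to 0.15, and GAP1 lies in the upper part of chromosome XI.

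GAP1 and DAL80 lie on chromosome XI, whose genes stood apart as a whole. The median log2 fold change was -0.86 over its 313 tested genes, of which 277 (88.5%) were called lower in tSH2Δ and 18 higher. The medians of the other 15 nuclear chromosomes lay between -0.01 and 0.15. On the right arm, where both members lie, the median was -0.80 over 101 genes, and on the left arm -0.90 over 212. Against this, GAP1 stood 0.95 above the median of its chromosome and above 92.7% of its tested genes. The part of the chromosome-wide difference in the GAP1 and DAL80 values was not tested. PUT3 (log2 fold change -1.33), the activator gene of PUT1 and PUT2, and PTR2 (-1.38), the peptide transporter gene, lie on the same chromosome.

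The genes next to the members were called in shares near those of all genes. Of the 20 nearest annotated genes, 66 to 3857 bases away, 9 were called higher in tSH2Δ, 8 lower, 2 were not called and 1 was not tested, beside 41.6% higher and 41.9% lower over all tested genes. PYK2 (0.74, limma adjusted p = 8.92e-06) and CIN1 (0.45, limma adjusted p = 6.28e-05) flank PUT4 and were higher, at well under the PUT4 fold. Beside GAD1, GTO3 was at 0.25 (limma adjusted p = 0.0499), and the short open reading frame YMR247W-A, 1374 bases away, was at 2.63 (limma adjusted p = 0.000199). UGA4, lower itself, lies between YDL211C (1.05, limma adjusted p = 2.27e-05) and CWC2 (0.85, limma adjusted p = 1.26e-06), both higher. MEP2, higher itself, lies between YNL143C and the adenine deaminase gene AAH1. YNL143C, 266 bases away, was also higher (1.16, limma adjusted p = 6.6e-06). AAH1, 643 bases away, was lower (-1.68, limma adjusted p = 3.69e-08). Beside GAP1, KAE1 was at -0.55 (limma adjusted p = 1.21e-05) and YKR041W was not called (-0.08, limma adjusted p = 0.368). No RefSeq gene of the table used overlaps a member. The sources used here do not give the strand setting of the authors' counting, so antisense reads within a member cannot be told apart from its own.

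Other genes of the same pathways were counted from lists of general knowledge. The lists were chosen with earlier results of these data known, so their counts are a description. The shares of all tested genes to set beside these counts are 41.6% higher and 41.9% lower after scaling to the median gene, 72.4% and 17.3% with RPKM as deposited, and 40.0% and 41.1% after quantile normalization. In a list of 4 genes, made up of PUT3 and the genes of proline synthesis, none was called higher and 4 lower, with a median of -1.05. With RPKM as deposited 1 was higher and 3 lower. PUT3, the activator of the proline oxidation genes, fell by 1.33 (SE 0.0331, limma adjusted p = 1.28e-08) and PRO2, of proline synthesis, fell by 1.24 (SE 0.0381, limma adjusted p = 2.61e-08). Beside this lower PUT3 transcript, PUT1 was higher (1.34) and PUT2 was not called (0.10). PUT3 lies on chromosome XI, whose genes had a median of -0.86, and the part of that difference in the PUT3 value was not tested. Of 9 genes of GABA regulation and the glutamate cycle, 4 were called higher and 5 lower. Their median was -0.33, and with RPKM as deposited it was 0.25, with 7 higher and 1 lower. GDH2, which releases ammonium from glutamate, rose by 1.301 (limma adjusted p = 1.25e-07) and IDP2, a cytosolic isocitrate dehydrogenase, by 1.13 (limma adjusted p = 6.69e-07). The glutamate synthase gene GLT1 fell by 1.44 (limma adjusted p = 4.08e-08). The glutamine synthetase gene GLN1 was at -0.67 (limma adjusted p = 4.31e-06), and at 0.11 after quantile normalization, where it was not called.

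**Figure D4:**
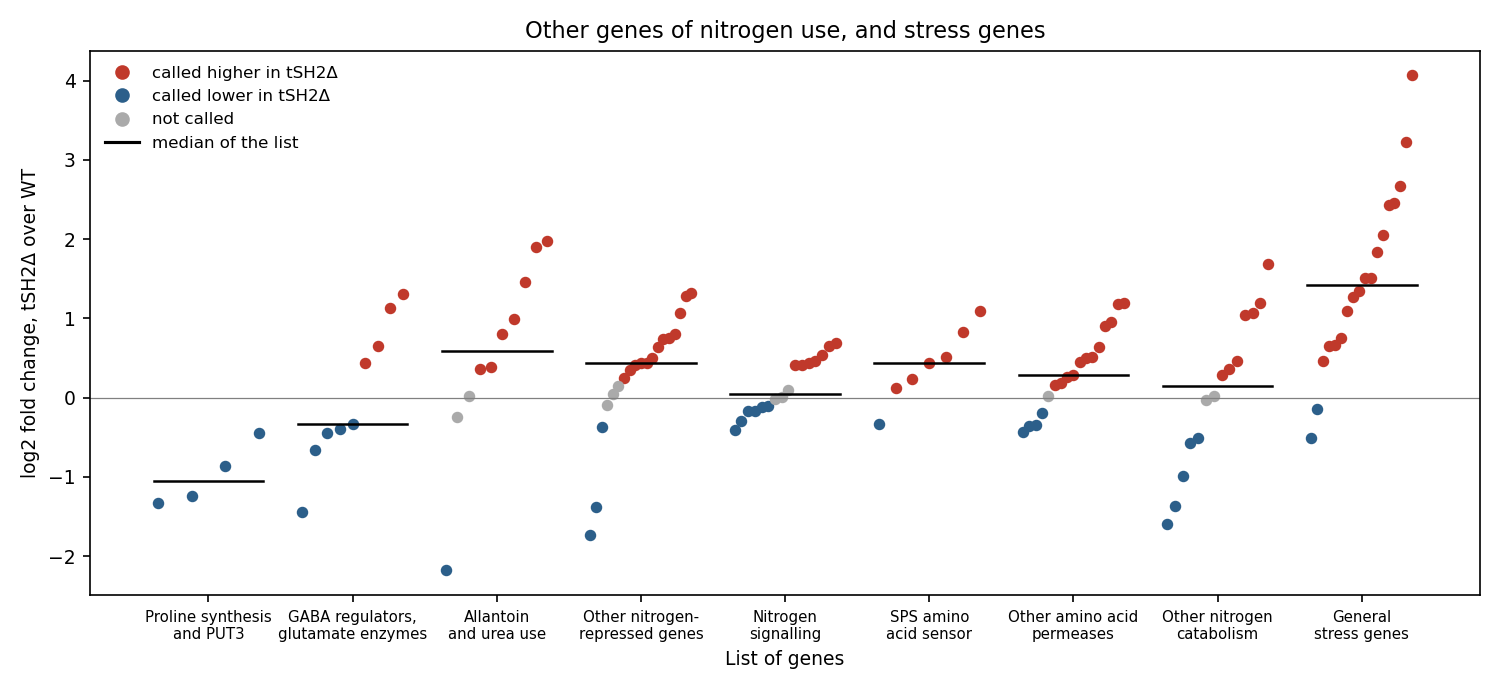
Log2 fold changes, tSH2Δ over WT on the log2(rescaled RPKM + 1) scale, with 1 point per tested gene of each pathway list, coloured by its call (higher or lower in tSH2Δ, or not called), and a bar at each list's median. The general stress genes have a median of 1.43 and the genes of proline synthesis and PUT3 one of -1.05, against 0.01 for all tested genes.

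Targets of nitrogen catabolite repression outside the 10 members were called higher more often than lower, beside 41.6% higher and 41.9% lower of all tested genes. Of 10 genes of allantoin and urea use, 7 were higher, 1 lower and 2 not called, with a median of 0.59, and after quantile normalization 5 were higher and 3 lower. DAL7, a malate synthase, rose by 1.97 (limma adjusted p = 1.82e-08) and DAL5, the allantoate permease gene, by 1.90 (limma adjusted p = 5.38e-08). DCG1, of the same list, fell by 2.18 (limma adjusted p = 1.05e-06). Of 19 other such targets, 13 were higher, 3 lower and 3 not called, with a median of 0.43. With RPKM as deposited 9 of the 10 were higher and 1 lower, and 17 of the 19 were higher and 2 lower. Of all tested genes 72.4% were higher and 17.3% lower in that setting. OPT2 (1.32, limma adjusted p = 7.01e-08) and RSB1 (1.28, limma adjusted p = 8.58e-08) rose furthest. YHI9 (-1.73, limma adjusted p = 2.58e-08) and PTR2 (-1.38, limma adjusted p = 1.25e-08) fell furthest.

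Sensors and regulators of nitrogen were counted next. Of 16 nitrogen signalling genes, 7 were higher, 6 lower and 3 not called, with a median of 0.05, beside 41.6% higher and 41.9% lower over all tested genes. With RPKM as deposited all 16 were higher, where 72.4% of all tested genes were. NPR2 (0.69, limma adjusted p = 1.34e-06), of the complex that restrains TORC1, and PAR32 (0.65, limma adjusted p = 2.42e-06) rose. The kinase gene TOR1 was at -0.41 (limma adjusted p = 1.04e-05) but at 0.16 with RPKM as deposited. GCN4, the activator of amino acid synthesis, was at -0.30 (limma adjusted p = 0.00115) but at 0.28 with RPKM as deposited and 0.52 after quantile normalization. Of 7 genes of the sensor of external amino acids, 6 were called higher and 1 lower, and the median was 0.43. The sensor gene SSY1 rose by 1.095 (limma adjusted p = 2.33e-07) and its transcription factor gene STP2 by 0.83 (limma adjusted p = 2.23e-07), while the ubiquitin ligase gene GRR1 was at -0.33 (limma adjusted p = 3.21e-05), and at 0.24 with RPKM as deposited.

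Of 17 amino acid permease genes other than GAP1 and PUT4, 12 were higher, 4 lower and 1 not called, with a median of 0.29, and all 17 were higher with RPKM as deposited, as were 72.4% of all tested genes. AGP3 (1.19, limma adjusted p = 9.03e-07) and AGP2 (1.18, limma adjusted p = 1.06e-06) rose furthest. GNP1 (-0.43, limma adjusted p = 1.41e-05) was at 0.15 with RPKM as deposited, and LYP1 (-0.36, limma adjusted p = 1.29e-05) at 0.22, and at 0.04 after quantile normalization. Of 14 genes of other nitrogen catabolism, 7 were higher, 5 lower and 2 not called, with a median of 0.15. NIT1 (1.68, limma adjusted p = 6.45e-08) and ARO80 (1.19, limma adjusted p = 2.91e-08), the activator of aromatic amino acid use, rose. CAR2 (-1.59, limma adjusted p = 8.59e-08), of arginine use, and the asparaginase gene ASP1 (-1.37, limma adjusted p = 2.28e-07) fell. Over all 94 nitrogen genes outside the members, 54 were higher, 29 lower and 11 not called, with a median of 0.28, where 41.6% of all tested genes were called higher and 41.9% lower. With RPKM as deposited 81 of them were higher and 10 lower, where 72.4% of all tested genes were higher and 17.3% lower.

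GAD1 is also known from work on oxidative stress, so general stress genes are given beside it. This list too was chosen with earlier results of these data known, so its counts are a description. Of 18 such genes, 16 were called higher and 2 lower, with a median of 1.43, while of all tested genes 41.6% were higher and 41.9% lower and the median was 0.01. The small heat shock protein gene HSP12 rose by 4.06 (SE 0.323, limma adjusted p = 4.60e-06) and the hexokinase gene HXK1 by 3.22 (SE 0.0416, limma adjusted p = 2.00e-09). The peroxidase gene GPX1, on chromosome XI, was at -0.51 (limma adjusted p = 0.00048) but at 0.03 with RPKM as deposited. The superoxide dismutase gene SOD2 was at -0.15 (limma adjusted p = 0.00402), but at 0.43 with RPKM as deposited and 0.24 after quantile normalization. HSP12 had 377.4, 499.3 and 1073 rescaled RPKM in tSH2Δ, against 32.0, 33.3 and 37.5 in WT, with tSH2Δ replicate 3 the highest as for PUT4 and GAD1. That replicate was the highest for 15 of the 18 stress genes and for 48 of the 94 other nitrogen genes, beside 44.2% of all tested genes. The part of a general stress difference in the PUT4 and GAD1 values was not tested.

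**Figure D5:**
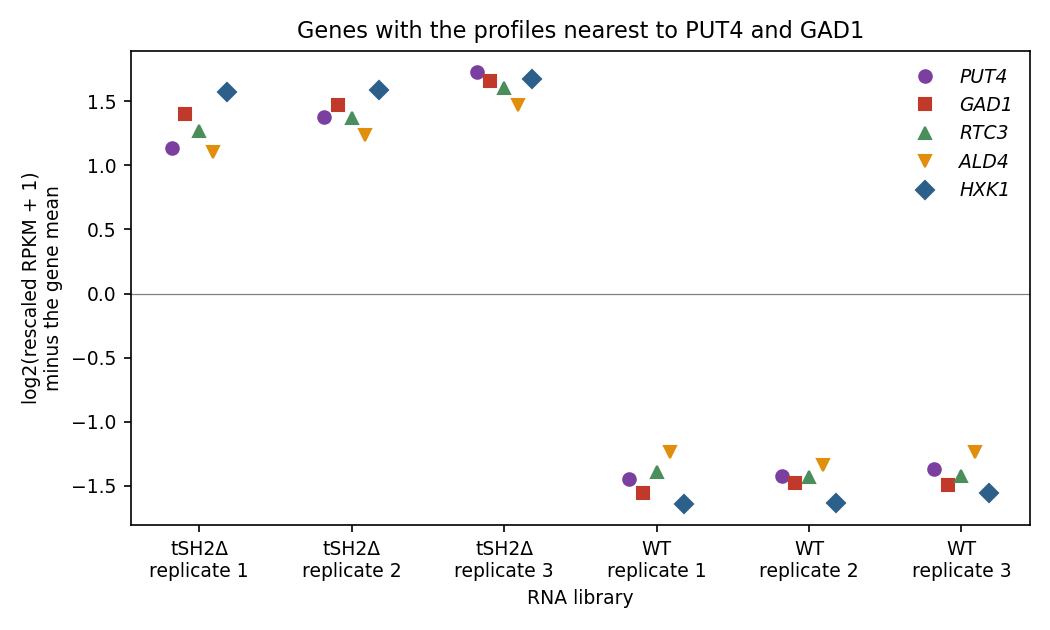
Deviation of each library from the gene's own mean on the log2(rescaled RPKM + 1) scale in the 6 libraries, for PUT4, GAD1 and the genes with the nearest profiles. All shown genes are above 0 in the tSH2Δ libraries and below 0 in the WT libraries, which follows from picking profiles near PUT4 and GAD1.

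The genes whose profiles over the 6 libraries lay nearest to PUT4, by Euclidean distance of centred log2 values among 5155 named genes, were RTC3 (0.196), GAD1 (0.338) and ALD4 (0.395). Nearest to GAD1 were RTC3 (0.256), HXK1 (0.283) and PUT4 (0.338). RTC3, a gene of unknown molecular function, had 181.6, 194.2 and 229.3 rescaled RPKM in tSH2Δ, against 27.8, 27.1 and 27.2 in WT. ALD4, which encodes a mitochondrial aldehyde dehydrogenase, had 123.2, 135.0 and 158.9 in tSH2Δ, against 23.6, 21.9 and 23.5 in WT. Their log2 fold changes were 2.83 for RTC3 and 2.54 for ALD4, beside 2.83 for PUT4 and 3.02 for GAD1. With 0.1 RPKM added in place of 1 RPKM they were 2.87 for RTC3, 2.59 for ALD4, 3.71 for PUT4 and 3.095 for GAD1. The like values of PUT4 and RTC3 thus depend on the constant added. The distances were not computed with another constant, so the genes found nearest to PUT4 may depend on it too. The distance includes the difference between the groups, so like fold changes follow from how these genes were picked.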

How the data were processed

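Messenger RNA was measured in 3 tSH2Δ and 3 WT libraries; the 6 ATAC-seq libraries were not analysed here. Per the labels' protocols, a stranded kit with rRNA removal was used and single-end reads of 50 bases were taken. The authors deposited RPKM values for 6571 genes with the gene length used, and, for 2890 listed genes, the group means of RPKM, their log2 ratio after adding 1 and an adjusted p-value from the authors' DESeq2 test, per the file headers. The genome was sacCer3, per the submitters' processing notes. Tools that the submitters' processing notes give for the authors' work on both assays are HTSeq 0.6.1, Bowtie 1.1.2, DESeq2, DESeq, SAMtools 1.3.1 and 0.1.9, deepTools 2.2.4, Bowtie2, Trim Galore 0.4.1 and bedtools 2.25.0, with no role for each. The sources used here do not give the annotation or the strand setting of the counting.

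Whole reads per gene, and from them the library totals, were recovered from RPKM times length in 100% of values, to within 0.01 reads. From 84.6% to 87.6% of reads fell in genes, and a row that names no gene (0.513% to 0.926%) was left out. Libraries of a group differed by more than sampling noise (chi-square over genes), so none was merged as a repeat of another. The chi-square per gene between replicates 1 and 2 was 3.1 in tSH2Δ and 3.2 in WT. Replicate 3 differed more from replicates 1 and 2, at 18.3 and 12.2 in tSH2Δ and 14.5 and 8.9 in WT. These values do not show that the libraries came from separate cultures. Size factors by median ratio were 1.20 to 1.23 in tSH2Δ and 0.811 to 0.828 in WT. The test was limma 3.58.1 (R 4.3.3, lmFit, then eBayes with a trend) on log2(rescaled RPKM + 1), two-sided. It covered the 6307 genes that reached 1 RPKM in 3 or more libraries, with Benjamini-Hochberg adjustment at 0.05. The test was checked on simulated data with far fewer changed genes than were called here. That check does not cover scaling to the median gene when most genes differ. Alternatives covered the pseudocount, the filter, the scaling, the variance trend, voom on whole reads, the replicate number as a block and each library left out. Gene names and 1-based coordinates came from the RefSeq table of R64, the assembly of sacCer3, where 5897 gene IDs matched and 674 did not. Promoter sequences were not analysed here.

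The members and the gene lists were chosen with earlier results of these data known. Named are the 10 members, SPT6, up to 2 called genes with the largest rise and 2 with the largest fall per list, the nearest gene on each side of a member, the 3 profiles nearest to PUT4 and GAD1, and strain check genes. YKR033C was named after its values were seen, as an overlap.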

Additional observations from a re-analysis of the deposited data

How the results depend on the processing

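Over 143 combinations of a tested member and an alternative, 133 kept direction and call, 7 lost the call, 2 gained it and 1 turned round. With RPKM as deposited 4565 genes were called higher and 1091 lower, 10 of the other nitrogen genes were called lower, and of the members 0 were called lower. The number of members called lower was 0 with a filter of at least 5 RPKM, which removes UGA4, and 2 both with no filter, which adds DAL80, and after quantile normalization, where GAP1 was at -0.33. Over all genes 2598 were called lower with the filter of at least 5 RPKM, 2615 with no filter and 2592 after quantile normalization. Members called higher numbered 5 both with no filter and after quantile normalization. After quantile normalization GLN1 was at 0.11, GCN4 at 0.52, LYP1 at 0.043 and SOD2 at 0.24. With RPKM as deposited TOR1 was at 0.16, GCN4 at 0.28, GRR1 at 0.24, GNP1 at 0.15, LYP1 at 0.22, GPX1 at 0.033 and SOD2 at 0.43, where all of these genes had values below 0 after scaling to the median gene. The cause was not tested. Same-numbered libraries did not deviate together (correlations of -0.25, -0.09 and -0.28). The highest correlation was 0.27, between tSH2Δ replicate 3 and WT replicate 1. Deviations from a mean of 3 libraries sum to 0, so these correlations cannot settle whether the numbers pair libraries. With a replicate block 2521 genes were higher and 2533 lower, and 6 members were higher and 1 lower. PUT4 in WT and DAL80 in both groups rest on under 30 reads per library, which limits their folds.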
